A study of Mus musculus with 12 samples.

Results

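The genes described here are 9 genes for amino acid transport across the plasma membrane (Slc7a5, Slc3a2, Slc1a4, Slc1a5, Slc7a1, Slc7a6, Slc7a11, Slc38a1 and Slc38a2) and Bcat1, a gene for the first enzyme of branched-chain amino acid metabolism. They were picked by name, and each was found by its Ensembl identifier, which gave 10 genes of the 37991 in the count table. The names were chosen with earlier results of these data known, and which comparison weighed in that choice is not recorded, so all values are a description of these genes and their p-values are no independent support. RNA was measured by sequencing of poly(A)-selected RNA from resting B cells of the mouse spleen, purified by negative selection from mice aged 8 weeks. Cre-only cells came from mice with the CD23-iCre transgene, in which the CD23 promoter drives Cre from the transitional B cell stage, and Runx1 c-k/o cells came from mice with the same transgene and a floxed Runx1 gene that loses exon 4. Cells of each genotype were taken at 0 h and after 3 h with anti-IgM, which engages the BCR, and IL-4. Each of the 4 groups had 3 biological replicates. The 3-h cells had both the stimulus and the time in culture, whose shares in a change cannot be told apart.

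A cell that leaves rest and prepares to divide needs amino acids for protein synthesis, and membrane transporters set how fast they enter. Slc7a5 and Slc3a2 encode the light chain (LAT1) and the heavy chain (CD98) of a transporter that exchanges intracellular glutamine for leucine and other large neutral amino acids, and leucine inside the cell is sensed by the kinase complex mTORC1. Slc1a5, Slc38a1 and Slc38a2 bring in glutamine and other small neutral amino acids, Slc7a1 brings in arginine and lysine, and the transcription factor ATF4 is known to act on several of these genes when amino acids are short.

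In the mm9 build the genes lie at chr8:124405052-124431594 (Slc7a5), chr19:8781372-8797859 (Slc3a2), chr11:20202183-20232716 (Slc1a4), chr7:17366695-17383623 (Slc1a5), chr5:149138986-149211480 (Slc7a1), chr8:108692775-108722604 (Slc7a6), chr3:50168858-50247535 (Slc7a11), chr15:96401849-96473344 (Slc38a1), chr15:96517825-96530129 (Slc38a2) and chr6:144942355-145024704 (Bcat1). All are annotated as protein coding. Exons of Bcat1 overlap those of Gm17263 on the other strand, and since the strand setting of the counting is not stated, reads of the pair may not be separated.

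RefSeq promoters of the GRCm38.p6 build were available for 7 of the 10 genes, with 10 start sites in all, and the 250 bases before each start were searched on both strands for 3 motifs. The motif to which ATF4 binds with C/EBP partners (TGATGNAA) was held by 3.45% of 32851 promoters of this length, and among these genes only by Slc7a11, at 66 and 47 bases before the start. The E-box of MYC (CACGTG), present in 6.02% of promoters, was in none of them. For RUNX only the letters TGTGGT were searched, and no variant of them. These letters, present in 14.0%, were found only 138 bases before the Slc3a2 start, which does not show that the other windows lack a RUNX site. The windows printed are those of Slc7a11 and Slc3a2, which held a motif, and of Slc1a4, which in Cre-only cells had the largest log2 fold change of the 9 tested genes and held none. They lie at chr3:50443614-50443863, chr19:8713898-8714147 and chr11:20332714-20332963, all on the minus strand, and capitals mark the matches, which in Slc3a2 and for the second Slc7a11 match are the reverse complement of the motif.
Slc7a11: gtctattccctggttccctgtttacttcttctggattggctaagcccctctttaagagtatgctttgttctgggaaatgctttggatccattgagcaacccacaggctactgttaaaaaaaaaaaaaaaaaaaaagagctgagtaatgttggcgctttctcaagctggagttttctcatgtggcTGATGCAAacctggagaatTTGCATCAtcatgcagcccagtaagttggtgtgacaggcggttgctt
Slc3a2: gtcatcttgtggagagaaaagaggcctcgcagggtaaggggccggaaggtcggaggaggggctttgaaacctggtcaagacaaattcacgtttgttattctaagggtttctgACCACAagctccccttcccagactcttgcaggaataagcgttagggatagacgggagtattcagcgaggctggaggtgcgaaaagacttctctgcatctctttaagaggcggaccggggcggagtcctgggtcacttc
Slc1a4: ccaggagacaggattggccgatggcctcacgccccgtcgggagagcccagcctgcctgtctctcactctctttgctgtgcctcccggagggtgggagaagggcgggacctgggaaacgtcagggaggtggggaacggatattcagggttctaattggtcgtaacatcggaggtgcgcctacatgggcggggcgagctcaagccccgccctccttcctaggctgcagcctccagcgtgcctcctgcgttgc
A match describes these letters only, and the windows of Slc7a5, Slc1a5 and Slc38a1 were not analysed here.

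Totals were 14442251 to 23641552 counts per sample, and 3 counts, the floor used here, equalled 0.127 to 0.208 CPM when each library is scaled by its total alone. Runx1, the targeted gene, gave normalized CPM values of 83.6, 81.8 and 86.7 for resting Cre-only samples and of 101, 95.7 and 103 for the resting c-k/o. Activated Cre-only samples gave 38.5, 37.0 and 34.9, and activated c-k/o samples 47.3, 70.6 and 74.5. These counts cover the whole gene, so the deletion of exon 4 cannot be seen in them. Of the 10 B cell markers, 9 were found in the table, and they summed to 16209 to 19299 normalized CPM at rest and 7415 to 8588 at 3 h, against 9.62 to 18.7 for 10 T cell markers. The 12 myeloid and dendritic cell markers summed to 228 to 437 at rest and 25.3 to 53.6 at 3 h, with Ly6g at 0 in all but resting Cre-only cells. The sums were 9.50 to 13.4 at rest and 2.06 to 5.52 at 3 h for 6 NK cell markers. For 6 plasma cell markers they were 1541 to 1679 and 2016 to 2390. The 8 erythroid and platelet markers summed to 48.4 to 266 in resting Cre-only and 257 to 422 in resting c-k/o cells. At 3 h these sums were 15.7 to 140 and 120 to 207. One library, resting Runx1 c-k/o replicate 2, stood apart from the other resting ones in the genes described here. Results that rest on it are given with and without it, except for the 3-h intervals between genotypes, whose shared spread includes it. Activated Runx1 c-k/o replicate 1 also differed from its companions, with 640.4 against 447 and 452 CPM for Slc3a2 and 471 against 644 and 798 for Slc7a1. Over all tested genes its deviations from the group means went with those of resting replicate 2 (r = 0.48). Fits without this activated library are given for some 3-h results only.

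Activation was followed by higher RNA levels of 8 of the 9 genes that could be tested, whichever genotype the cells had. Over all 13538 tested genes, 38.6% were higher and 36.4% lower at 3 h in Cre-only cells, and the Runx1 c-k/o had 37.7% higher and 36.6% lower. With upper-quartile factors, which moved the median log2 fold change of all genes in Cre-only cells by -0.26, higher genes were 40.8% of those called there, against 51.5% with TMM. No reading is drawn from these shares, as the genes may have been chosen on this contrast. All values are normalized CPM (counts per 1000000 of the TMM-scaled library size), which are relative to the total poly(A) RNA: the table holds no spike-in counts, and in bulk RNA fewer cells of a type and less RNA per cell cannot be told apart.

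Among the genes of the CD98 heterodimers, the light chain gene Slc7a5 had the largest log2 fold change. Slc7a5 read 37.1, 36.6 and 34.6 CPM in resting Cre-only cells and 639, 683 and 668 at 3 h. In Runx1 c-k/o cells it read 41.3, 119.7 and 38.4 at rest and 757, 667 and 721 at 3 h. Every 3-h sample lay far above every resting one, and resting Runx1 c-k/o replicate 2 was about 3.00 times the mean of its 2 companions. The log2 fold change was 4.20 (SE 0.368) in Cre-only cells and 3.43 (SE 0.355) in Runx1 c-k/o cells, with adjusted p = 6.06e-07 and 2.70e-06 by edgeR's quasi-likelihood test. Without that library the change in Runx1 c-k/o cells was 4.17 (SE 0.110).

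The heavy chain gene Slc3a2 began higher and rose less. Its CPM values were 174, 179 and 180.0 at rest and 419, 469 and 463 at 3 h in Cre-only cells. Runx1 c-k/o cells had 167, 242 and 164 at rest, and 640.4, 447 and 452 at 3 h. No resting value reached a 3-h value, while replicate 2 at rest and replicate 1 at 3 h were above their companions. The log2 fold changes were 1.34 (SE 0.168) and 1.43 (SE 0.169), with adjusted p = 1.32e-05 and 8.46e-06 by edgeR. Slc7a6 encodes another CD98 partner, y+LAT2, which exchanges cationic for neutral amino acids. It read 50.5, 47.8 and 46.0 CPM at rest and 222, 229.7 and 219 at 3 h in Cre-only cells, and 45.3, 59.0 and 47.4 at rest and 189, 183 and 208 at 3 h in the Runx1 c-k/o. Fold changes of Slc7a6 on the log2 scale were 2.21 (SE 0.105) and 1.94 (SE 0.104), with adjusted p = 1.36e-08 and 3.14e-08 by edgeR, so its groups were clearly apart in both genotypes. Slc7a11, the light chain of the cystine and glutamate exchanger xCT, was close to the floor and did not pass the filter on low counts. It had 3, 1 and 0 counts in resting and 5, 3 and 5 counts in 3-h Cre-only cells, and 3, 2 and 1 and then 5, 13 and 7 counts in Runx1 c-k/o cells.

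Slc1a4 and Slc1a5 encode ASCT1 and ASCT2, sodium-dependent exchangers of small neutral amino acids, ASCT2 being a main route for glutamine. Slc1a4 had 18, 13 and 5 counts in resting Cre-only cells (0.867, 0.740 and 0.310 CPM) and 73.2, 82.5 and 78.7 CPM at 3 h. In Runx1 c-k/o cells the CPM values were 1.41, 12.4 and 0.995 at rest and 90.6, 81.4 and 86.0 at 3 h. This gene therefore went from a trace to a clear signal in every activated sample. The log2 fold change was 6.88 (SE 0.764) in Cre-only cells and 4.13 (SE 0.607) in Runx1 c-k/o cells, with adjusted p = 4.59e-06 and 5.26e-05 by edgeR, and 6.15 (SE 0.215) in Runx1 c-k/o cells without resting replicate 2. Slc1a5 was abundant from the start, at 264, 254 and 258 CPM in resting and 793, 781 and 833 in 3-h Cre-only cells. Runx1 c-k/o cells had 264, 328 and 245 CPM of Slc1a5 at rest and 958, 789 and 904 at 3 h. Its log2 fold changes were 1.63 (SE 0.119) and 1.66 (SE 0.119), with adjusted p = 1.35e-07 and 1.46e-07 by edgeR.

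**Figure D1:**
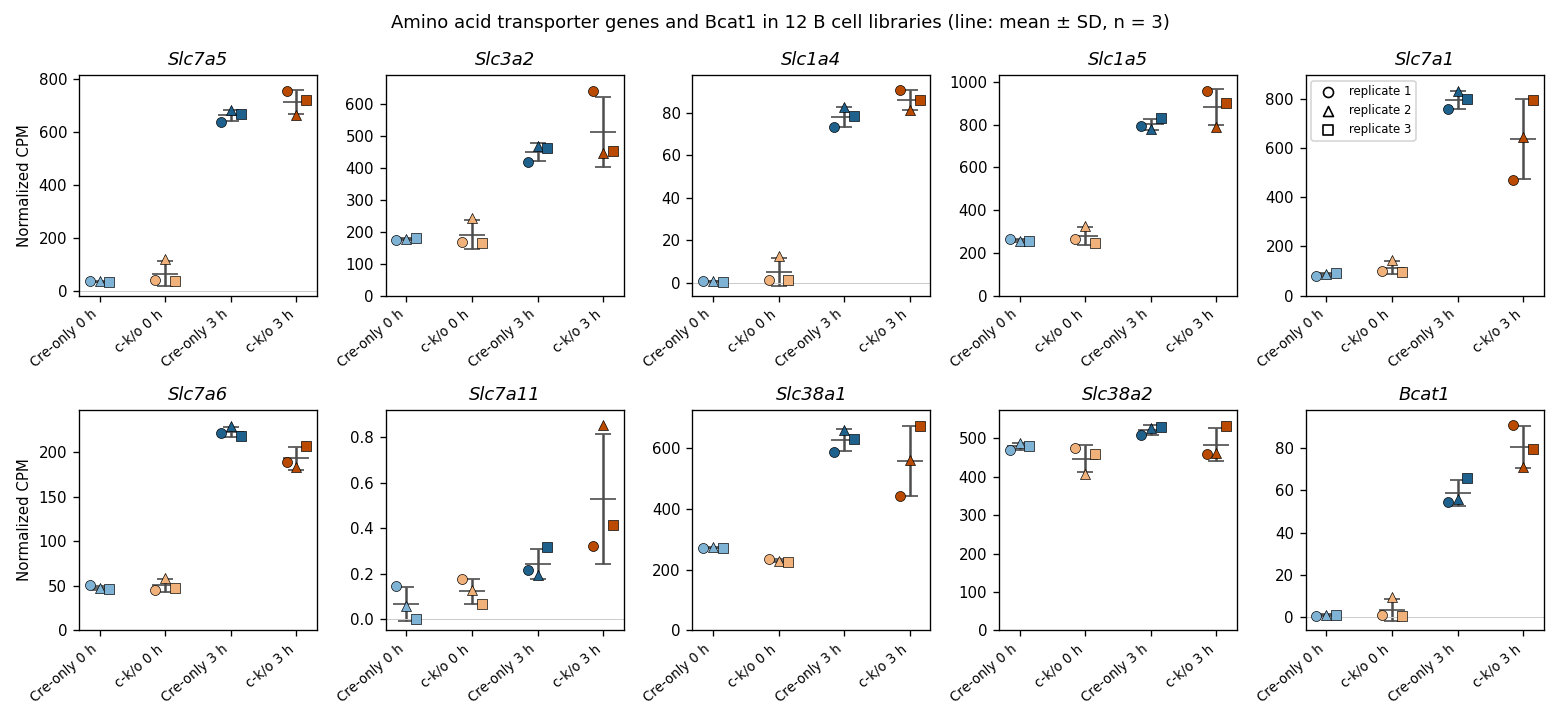
Normalized CPM (linear axes) of the 10 genes in the 12 samples, by genotype and time. Each symbol is 1 sample (circle, triangle and square for replicates 1, 2 and 3), the line is the mean and the bar the SD of 3 samples. All genes but Slc38a2 and Slc7a11 show 3-h samples well above resting ones, and the triangle of resting Runx1 c-k/o cells lies above its companions for Slc7a5 (119.7 against 41.3 and 38.4), Slc1a4 and Bcat1.

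Slc7a1 encodes CAT1, a carrier of arginine, lysine and ornithine. It read 81.2, 87.7 and 92.2 CPM in resting Cre-only cells and 759, 833 and 799 at 3 h. In Runx1 c-k/o cells the readings were 100.3, 144 and 98.0 at rest and 471, 644 and 798 at 3 h. All activated samples were above all resting ones, but the 3-h Runx1 c-k/o samples spread widely. The log2 fold changes were 3.19 (SE 0.199) and 2.48 (SE 0.193), with adjusted p = 4.58e-08 and 2.77e-07 by edgeR.

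Of the sodium-coupled glutamine carriers SNAT1 (Slc38a1) and SNAT2 (Slc38a2), SNAT1 passed the test. Slc38a1 read 271, 273 and 270.2 CPM in resting and 588, 660.4 and 628 in 3-h Cre-only cells. It read 235, 229 and 226 at rest and 442, 559.7 and 673 at 3 h in Runx1 c-k/o cells. On the log2 scale the rise was 1.20 (SE 0.129) for Cre-only and 1.28 (SE 0.129) for Runx1 c-k/o cells, with adjusted p = 3.29e-06 and 2.18e-06 by edgeR, and Slc38a1 was 1 of 2 of the 9 tested genes in which resting replicate 2 did not stand above its companions. The other was Slc38a2, a gene known to be induced when amino acids are scarce. Its CPM values were 470.2, 489 and 479 at rest and 507, 526 and 530.1 at 3 h in Cre-only cells, and 475, 407 and 459 at rest and 458, 461 and 532 at 3 h in Runx1 c-k/o cells. The groups did not overlap for Cre-only samples and did for the c-k/o. Differences on the log2 scale of 0.12 (95% interval -0.08 to 0.32) and 0.11 (-0.09 to 0.32) did not pass the test, with adjusted p = 0.256 and 0.285 by edgeR, and their sign depended on the scaling (-0.14 and -0.10 with upper-quartile factors).

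Bcat1 encodes the cytosolic aminotransferase that moves the amino group of leucine, isoleucine and valine to 2-oxoglutarate. It had 11, 22 and 20 counts in resting Cre-only cells (0.530, 1.25 and 1.24 CPM) and 54.3, 56.0 and 65.6 CPM at 3 h. Runx1 c-k/o cells had 0.820, 9.63 and 0.398 CPM at rest and 90.8, 70.9 and 79.6 at 3 h. As with Slc1a4, all resting samples but replicate 2 of the Runx1 c-k/o were near 1 CPM. The log2 fold changes of Bcat1 were 5.89 (SE 0.764) and 4.49 (SE 0.662), with adjusted p = 1.75e-05 and 5.51e-05 by edgeR, and 7.01 (SE 0.301) in Runx1 c-k/o cells without that library. Counted without a model, the 3-h samples were all above the resting ones in 9 of 9 tested genes in Cre-only cells, as in 43.8% of all tested genes, and in 8 of 9 in Runx1 c-k/o cells, as in 36.5%. The 10 genes together summed to 1360 ± 9.57 CPM (mean ± SD, n = 3) at rest and 4220 ± 144 at 3 h in Cre-only cells, and to 1386 ± 144 and 4151 ± 278 in Runx1 c-k/o cells.

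Levels of different genes were compared after division by the total exon length of each gene (CPM per kb of mm9 exons). In resting Cre-only cells the order was Slc38a2 at 103.6, Slc1a5 at 62.2, Slc3a2 at 60.1, Slc38a1 at 32.4, Slc7a6 at 12.9, Slc7a1 at 11.6, Slc7a5 at 10.3, Slc1a4 at 0.163 and Bcat1 at 0.108, with Slc7a11 below. Only Slc1a4 and Bcat1 had overlapping samples among neighbours in this order. After 3 h Slc1a5 (193) and Slc7a5 (189) led with overlapping samples, followed by Slc3a2 (152), then Slc38a2 (113) and Slc7a1 (106), which overlapped, and then Slc38a1 (74.6), Slc7a6 (59.9), Slc1a4 (19.9) and Bcat1 (6.29). Slc7a5 thus moved from the seventh place to a level shared with the first, and Slc38a2 from the first to the fourth. Runx1 c-k/o cells at 3 h had the same order by mean, with Slc1a5 at 213, Slc7a5 at 203, Slc3a2 at 173, Slc38a2 at 104.5 and Slc7a1 at 84.7. At rest they had Slc38a2 at 96.6, Slc1a5 at 67.1, Slc3a2 at 64.6 and Slc38a1 at 27.4, and below these Slc7a5, Slc7a1 and Slc7a6 at 18.9, 15.2 and 13.6, whose samples overlapped. The Slc7a5 level rested on replicate 2, which at 34.1 was above every Slc38a1 value. Without that sample Slc7a5 averaged 11.3 and came after Slc7a1 at 13.2 and Slc7a6 at 12.4, Slc1a4 went from 1.26 to 0.306 and Bcat1 from 0.388 to 0.0653.

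**Figure D2:**
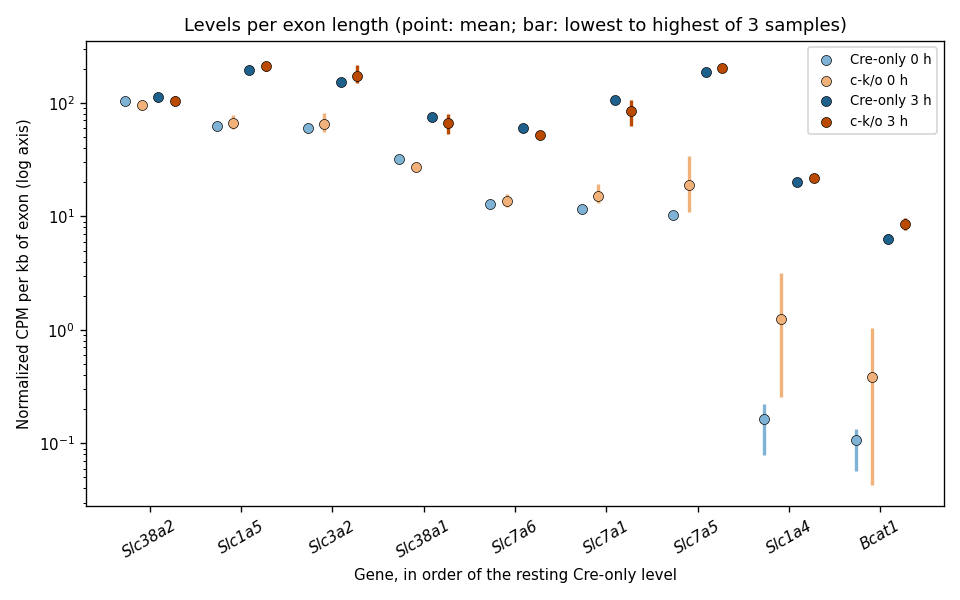
Level per exon length (CPM per kb, log axis) of 9 genes in the 4 groups, ordered by the resting Cre-only level. Points are means and bars span the lowest to the highest of 3 samples. Slc7a5 climbs from 10.3 to 189 in Cre-only cells while Slc38a2 stays near 100 (103.6 and 113).

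The change of order shows in pairs of genes with related products. Per exon length, Slc7a5 RNA was 0.171 ± 0.00880 times Slc3a2 RNA in resting Cre-only cells (SD, n = 3) and 1.24 ± 0.0368 times at 3 h. In Runx1 c-k/o cells the samples had ratios of 0.209, 0.416 and 0.197 at rest and 0.994, 1.26 and 1.34 at 3 h. In both genotypes the light chain RNA was thus well below the heavy chain RNA at rest and near or above it at 3 h. Slc7a5 was 0.796 ± 0.0167 times Slc7a6, which uses the same heavy chain, at rest and 3.15 ± 0.0924 times at 3 h in Cre-only cells, and 0.968, 2.15 and 0.859 times in the 3 resting and 3.93 ± 0.285 times in the 3-h Runx1 c-k/o samples. Bcat1 was set against Bcat2, the mitochondrial enzyme for the same reaction, which is the common form in most tissues. The Bcat1 to Bcat2 ratio was 0.0140 ± 0.00550 at rest and 0.949 ± 0.0309 at 3 h in Cre-only cells, and in Runx1 c-k/o cells it was 0.00987, 0.102 and 0.00473 at rest and 0.872, 0.946 and 1.13 at 3 h. By this measure RNA for the cytosolic form went from a trace to about the level of the mitochondrial form. The lengths are those of all annotated exons, not of the transcripts expressed. Reads of Gm17263 may be included for Bcat1, so equal levels of the 2 forms are not shown.

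The comparison of genotypes asks whether loss of Runx1 exon 4 alters these genes. None of the 9 tested genes passed the threshold at rest, where 1.49% of all tested genes did, or at 3 h, where 2.77% did, by edgeR. At an unadjusted p under 0.05 there were 2 of them at rest (Slc1a4 and Slc7a5), among 1496 of all genes, and 0 at 3 h, among 2194. DESeq2's Wald test, which gave no p for Slc1a4, called none of the other 8.

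At rest the estimates of the low genes were large and rested in large part on replicate 2. The Runx1 c-k/o over Cre-only log2 fold change was 2.89 (SE 0.855) for Slc1a4, 1.86 (SE 0.874) for Bcat1 and 0.88 (SE 0.332) for Slc7a5, with adjusted p = 0.170, 0.464 and 0.317 by edgeR. Without replicate 2 they became 0.87 (SE 0.317), -0.66 (SE 0.437) and 0.14 (SE 0.0935), with adjusted p = 0.40, 0.898 and 0.896 by edgeR, and 1.01% of all genes were called. For Slc7a5 the interval then ran from -0.06 to 0.35, and for Bcat1 from -1.61 to 0.30. Slc1a4 stayed higher in the Runx1 c-k/o (0.87), at 24 and 15 counts against 18, 13 and 5 in Cre-only cells. Slc7a1 had 0.39 (SE 0.185, adjusted p = 0.472 by edgeR) with and 0.19 (SE 0.170, adjusted p = 0.999 by edgeR) without that library. The other 5 tested genes differed by -0.24 (Slc38a1) to 0.11 on the log2 scale. All 3 Runx1 c-k/o samples were above all Cre-only samples for Slc1a4, Slc7a1 and Slc7a5 (12% of all genes) and below them for Slc38a1 (11.6% of all genes).

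At 3 h the 95% interval of the genotype difference included 0 for all 9 tested genes. Bcat1 was 0.46 higher in Runx1 c-k/o cells on the log2 scale (95% interval -0.71 to 1.62), with all 3 samples above Cre-only (as in 9.5% of all genes) and adjusted p = 0.667 by edgeR. Slc7a6 had a log2 difference of -0.21 (interval -0.43 to 0.01), with all 3 samples below Cre-only (12.3% of all genes) and adjusted p = 0.328 by edgeR. The difference of Slc7a1 was -0.32 (interval -0.72 to 0.08; adjusted p = 0.393 by edgeR), and -0.12 without Runx1 c-k/o replicate 1, which had the lowest Slc7a1 value of 471. Slc7a5 and Slc3a2, the light and heavy chain genes of the leucine transporter, had log2 differences of 0.11 (interval -0.59 to 0.81) and 0.19 (interval -0.17 to 0.55), the latter 0.0207 without Runx1 c-k/o replicate 1, which had the highest Slc3a2 value of 640.4, and Slc1a5 had 0.14 (interval -0.11 to 0.39). These intervals leave room for changes of either sign, and a p that misses the threshold does not show equal levels. In this fit all groups share the estimate of each gene's spread. For Bcat1 and Slc7a5 resting Runx1 c-k/o replicate 2 therefore enters the 3-h intervals, and no 3-h interval without it is given.

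**Figure D3:**
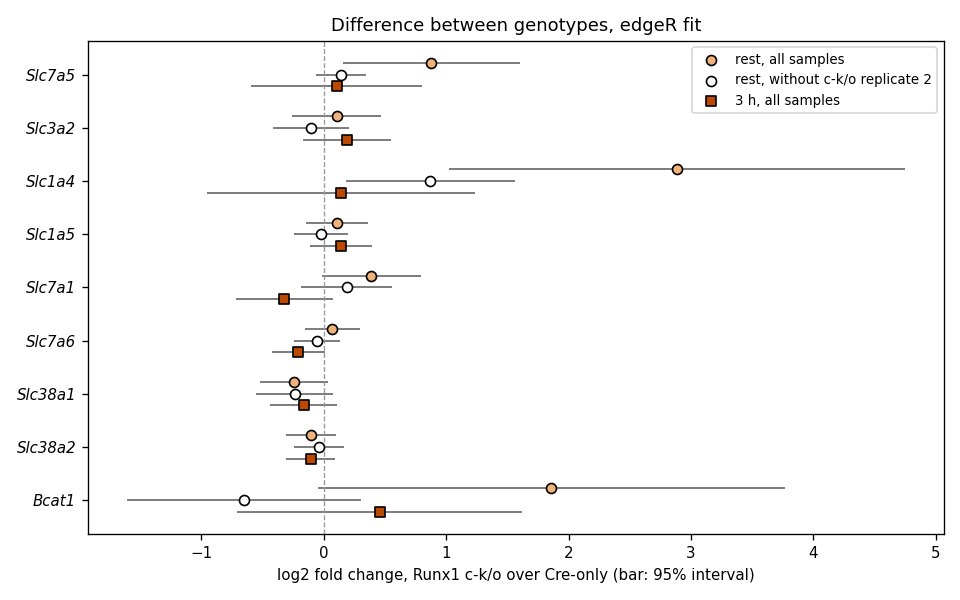
log2 fold change of Runx1 c-k/o over Cre-only cells for 9 genes by edgeR, with 95% intervals (bars). Filled circles are resting cells, open circles resting cells without Runx1 c-k/o replicate 2, and squares 3-h cells. The resting estimates for Slc1a4 (2.89), Bcat1 (1.86) and Slc7a5 (0.88) move to 0.87, -0.66 and 0.14 without that library.

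Whether the rise on activation itself differed by genotype was tested by the interaction. No gene described here passed the threshold by edgeR, against 0.0813% of all genes, and 2 had an unadjusted p under 0.05 (Slc1a4 and Slc7a1, of 686 genes). The smaller fold change of Slc1a4 in Runx1 c-k/o cells was -2.75 (95% interval -4.94 to -0.55) on the log2 scale, with adjusted p = 0.749 by edgeR, and -0.73 without resting replicate 2. That of Slc7a1 was -0.71 (interval -1.28 to -0.14), with adjusted p = 0.749 by edgeR, and -0.51 without that library. For Bcat1 the sign turned, from -1.40 to 1.11.

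Resting Runx1 c-k/o replicate 2 stood apart across most of these genes. Relative to the mean of replicates 1 and 3 it held 15.8 times the Bcat1 CPM, 10.3 times that of Slc1a4, 3.00 times that of Slc7a5, 1.46 times that of Slc3a2, 1.45 times that of Slc7a1, 1.29 times that of Slc1a5 and 1.27 times that of Slc7a6. Expressed as a share of the step from these 2 samples to the 3-h Runx1 c-k/o mean, the excess of the 7 genes above their companions was 8.31% to 22.1%. It was 11.8% for Slc7a5, 13.2% for Slc1a4, 11.3% for Bcat1, 11.6% for Slc1a5, 8.31% for Slc7a1, 8.61% for Slc7a6 and 22.1% for Slc3a2, and -0.56% for Slc38a1. Slc38a2 was 0.871 times its companions' mean, which is -358% of its small step, and Slc7a11 was near the floor. Of all other genes that rose at least 4-fold in Cre-only cells to 10 CPM or more, 573 in number, the median excess was 12.9% (middle 50% from 10.7% to 15.3%), and 97.0% lay above both companions in this library. Of 675 genes that fell at least 4-fold from 10 CPM or more, 61.0% lay below both companions and 27.1% above both, with a median of 11.1% of the step to 3 h and a wider middle 50% from -8.16% to 24.3%. Its myeloid and dendritic cell markers summed to 437 CPM, the highest of the resting libraries, and its B cell markers to 19299. The part of other cells in this pattern was not tested.

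**Figure D4:**
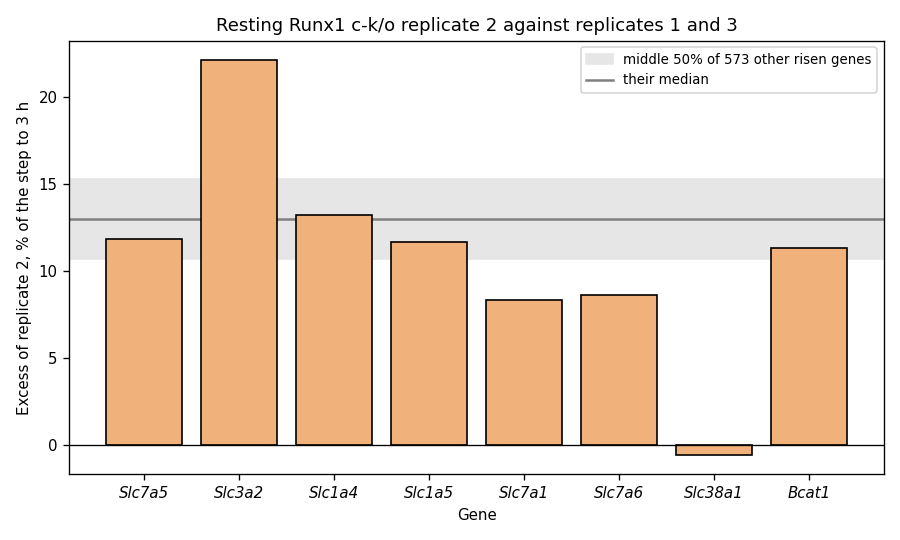
Excess of resting Runx1 c-k/o replicate 2 over the mean of replicates 1 and 3, as % of the step from that mean to the 3-h Runx1 c-k/o mean, for 8 genes, leaving out Slc38a2, whose step was small, and Slc7a11, near the floor. The grey band and line are the middle 50% and the median (12.9%) of 573 other genes that rose at least 4-fold in Cre-only cells. Slc38a1 has no excess (-0.56%) and Slc3a2 the highest of these 8 (22.1%).

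Other genes of amino acid metabolism were counted by list on activation, beside 38.6% higher and 36.4% lower over all tested genes in Cre-only cells, and 30.6% and 44.3% with upper-quartile factors. The lists were written with earlier results of these data known, are given as counts, and their differences from each other were not tested. Of 48 other amino acid transporter genes, 23 could be tested in Cre-only cells, and 7 were higher and 12 lower, with a median log2 fold change of -0.52 against 0.03 over all genes. Those higher with the smallest p were Slc43a3, which encodes a nucleobase carrier (1.64), and the lysosomal peptide and histidine carrier Slc15a3 (3.35). With them were the glutamate carrier Slc1a2 (3.50, from 0.250 to 2.99 CPM) and the glycine carrier Slc6a9 (5.49, from 0.202 to 9.39 CPM). Both began near the floor. The lower ones were led by Slc43a2, a carrier of leucine and other neutral amino acids (-3.78, from 94.9 ± 2.49 to 6.88 ± 0.357 CPM), Slc15a4 (-1.57), Slc7a8, which encodes the other large neutral amino acid light chain LAT2 (-3.30), and the lysosomal arginine sensor Slc38a9 (-1.61). The Runx1 c-k/o had 7 higher and 11 lower. Of 9 mitochondrial carriers, 4 were higher (Slc25a22, Slc25a15, Slc25a44, which carries branched-chain amino acids, and Slc25a13) and 2 lower (Slc25a12 and Slc25a2, the latter not with 1 RUVs factor, adjusted p = 0.268 by edgeR, or without resting replicate 2 or 3-h replicate 1) in Cre-only cells, with a median of 0.27 (0.0105 with upper-quartile factors), and the Runx1 c-k/o had 4 higher and 1 lower.

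Of 23 tested genes of branched-chain amino acid breakdown other than Bcat1, 8 passed the threshold in neither direction in Cre-only cells. There were 6 higher, led by Dbt (0.90), Auh (0.62), Dld (0.78) and Mut (0.53), and 9 lower, against 38.6% and 36.4% of all genes, with a median log2 fold change of -0.01. The lower ones were led by Ivd, the isovaleryl-CoA dehydrogenase of leucine breakdown (-2.29), Pcca (-1.71), Bckdhb, a subunit of the branched-chain ketoacid dehydrogenase (-1.81), and Mccc2 (-2.0). Runx1 c-k/o cells gave the same counts of 6 and 9. Acad8, the isobutyryl-CoA dehydrogenase of valine breakdown, was the 1 gene of this list past the threshold between genotypes, where 2.77% of all tested genes passed at 3 h. Acad8 was higher in Runx1 c-k/o cells at 3 h by 0.90 on the log2 scale (9.70 ± 1.22 against 5.17 ± 0.630 CPM, n = 3 each), with adjusted p = 0.00746 by edgeR. With upper-quartile factors this list had 3 genes higher and 12 lower in Cre-only cells, and Mut no longer passed (0.27, adjusted p = 0.0922 by edgeR).

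Of 38 genes of amino acid sensing at mTORC1, 18 were higher and 6 lower in both genotypes (38.6% and 36.4% of all genes in Cre-only cells, 37.7% and 36.6% in the Runx1 c-k/o), with a median log2 fold change of 0.29 in Cre-only cells. With upper-quartile factors Cre-only cells had 13 higher and 10 lower, against 30.6% and 44.3% of all genes, and the median was 0.0319. Seh1l (1.52) and Wdr59 (1.54) of the GATOR2 complex, the GTPase Rragd (3.34) and the mTOR partner Mlst8 (1.47) were the higher ones with the smallest p. Lower were the leucine sensor family members Sesn1 (-3.62, from 213 ± 21.2 to 17.3 ± 1.78 CPM) and Sesn3 (-2.38), and Gatsl2 (-1.99) and Gatsl3 (-1.92), members of the arginine sensor family. The list of ATF4 and its targets outside transport had 18 of 21 genes higher and 2 lower in Cre-only cells (median 2.38), and the Runx1 c-k/o had 18 higher and 1 lower. It rose with Cebpg (2.20), the proline synthesis genes Aldh18a1 (3.10) and Pycr1 (4.32) and the serine synthesis gene Psat1 (3.06, from 28.9 ± 2.72 to 241 ± 15 CPM). Atf3 (-2.59) and Cebpb (-1.22) were lower. Atf3 was the 1 gene of this list past the threshold between genotypes, where 2.77% of all tested genes passed at 3 h. Atf3 was higher in Runx1 c-k/o cells at 3 h by 0.86 on the log2 scale (69.5 ± 13.7 against 38.3 ± 5.19 CPM), with adjusted p = 0.0174 by edgeR. That call was lost without Cre-only replicate 1 or 2 or Runx1 c-k/o replicate 2 at 3 h (adjusted p = 0.0963, 0.0635 and 0.0611 by edgeR), with only the 2 groups compared (0.88, adjusted p = 0.0682 by edgeR) and without the pair of resting replicate 2 and 3-h replicate 1 of the Runx1 c-k/o (0.79, adjusted p = 0.0551 by edgeR), a choice made after seeing the data under which 4 other genes of the list were higher. Cebpb lost its call on activation without resting replicate 3 or 3-h replicate 1 of the Cre-only cells (adjusted p = 0.0571 and 0.057 by edgeR). Of 12 genes of glutamine, glutamate and glutathione use, 7 were higher, led by Gclc (1.63), Gpt2 (3.50), Gclm (1.11) and Got2 (0.58), and 2 were lower, Glul, the glutamine synthetase (-1.0), and Gpx4 (-1.03), with a median of 0.35 and equal counts in Runx1 c-k/o cells. With upper-quartile factors this list had 5 higher and 3 lower in each genotype, with a median of 0.0903 for Cre-only cells and 0.0583 for the c-k/o.

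**Figure D5:**
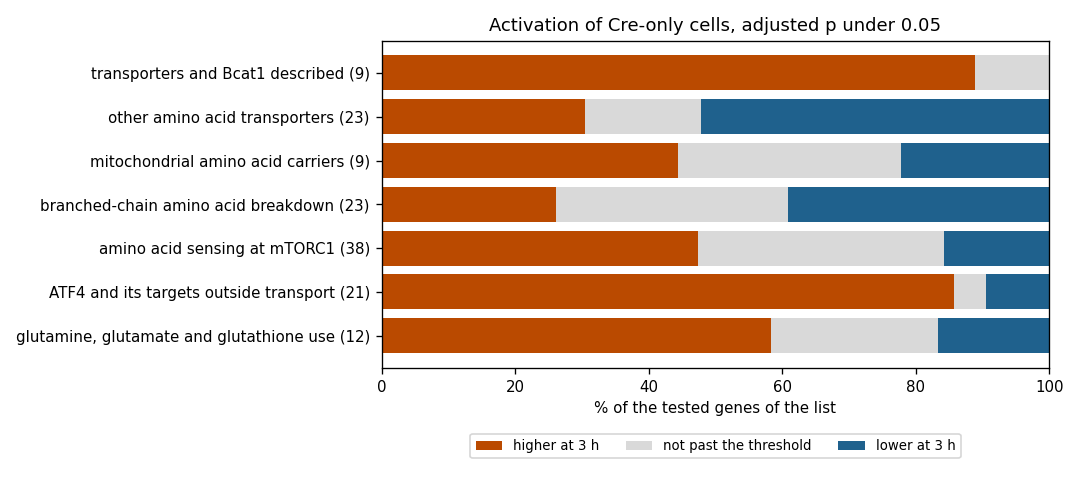
Share of tested genes (x axis, %) higher, lower or not past an adjusted p of 0.05 by edgeR at 3 h in Cre-only cells, for the genes described here and 6 lists (number of tested genes in parentheses). The ATF4 list has 18 of 21 genes higher, while the other amino acid transporters have 7 higher and 12 lower of 23.

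The genes whose log2 CPM was most like that of each gene over the 12 samples were found by Pearson's r, which here mostly reflects the step from rest to 3 h that the samples share. They were Mapkapk3, Ints5 and Aars for Slc7a5, Srsf9, Ube2n and Tkt for Slc3a2, Trib3, Cish and Tbc1d30 for Slc1a4, and Taf1c, Ewsr1 and Lars for Slc1a5. For Slc7a1 they were Gtf3c4, Fasn and Vprbp, for Slc7a6 Nol6, Zfp146 and Nat10, for Slc38a1 Zfp451, Aqr and Tgfbr1, and for Bcat1 Mfsd2a, Mir146 and Epcam. For these 8 genes r was 0.993 to 0.999, and each had 1044 to 2730 genes with r above 0.95. Slc38a2 was unlike them, with Cwf19l2 (r = 0.958), Brd1 and Ivns1abp nearest and 2 genes above 0.95.

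Once the 4 group means were removed, the remaining variation was compared between the 9 tested genes. Over the 12 samples the 36 pairs had a median r of 0.58 and 11 were negative, most of them with Slc38a2 (-0.66 with Slc3a2, -0.63 with Slc7a5, -0.60 with Slc1a4), with Slc7a5 and Slc1a4 at 0.96 and Slc7a5 and Bcat1 at 0.94, and 14 pairs were above 0.7. Without resting Runx1 c-k/o replicate 2 and 3-h Runx1 c-k/o replicate 1 the median was 0.44 over 10 samples, 5 pairs were negative, 6 were above 0.7, and Slc7a5 with Bcat1 fell to 0.11. All pairs with Slc38a2 were positive there (0.43 with Slc3a2, 0.68 with Slc7a5, 0.12 with Slc1a4), so their negative values rested on these libraries. Slc38a1 and Slc38a2, neighbours on chromosome 15, had 0.92 there, against 0.64 over all samples. These coefficients describe samples that share a scaling and few libraries, and carry no test.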

How the data were processed

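Poly(A)-selected RNA of 12 samples (4 groups, 3 biological replicates each) was sequenced as stranded paired-end libraries. The authors aligned the reads to mm9 (TopHat2 2.0.11, Ensembl 66) and deposited raw counts per gene from featureCounts, without normalization. ERCC RNA was added by the authors, but the table holds no spike-in counts. The strand setting and the handling of multiply aligned reads are not given in the sources used here.

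The genes, lists and tests were chosen with earlier results of these data known. Every gene of the fixed set is named. From each list, up to 4 genes per direction with the smallest adjusted p in Cre-only activation were named, with those past the threshold between genotypes, and for each gene its 3 most similar genes. Genes passing filterByExpr (minimum 10 counts) numbered 13538. They were fitted with edgeR 4.0.16 (R 4.3.3; TMM, robust quasi-likelihood, 1 term per group, all 12 samples). Adjusted p-values are Benjamini-Hochberg over all tested genes, with a threshold of 0.05. SEs were computed from the log2 fold change and the F statistic of the fit, and 95% intervals from the SE and the t distribution. The models were tested on simulated data in which few genes changed, evenly up and down. That test does not cover the choice of scaling on activation. Exon lengths came from the GENCODE annotation of mm9 (Ensembl 65), and promoters from RefSeq. The intervals include the spread between replicates. The floor (3 counts) concerns counting error only, and the reads carry no molecular identifiers. With 3 against 3 samples, an exact permutation test of 1 gene cannot go below p = 0.1.

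Same-numbered resting and activated samples were correlated in their deviations from the group means in Cre-only cells (r = 0.28, 0.18 and 0.14 over genes) but not in every pair of Runx1 c-k/o cells (-0.25, -0.26 and 0.25), and across genotypes r was -0.07 to 0.07. The main fit used no pairing in either genotype, and replicate blocks, over all groups or within each genotype, were run as alternatives. Alternatives were other scalings, filters, DESeq2 1.42.0, 1 RUVs factor (computed from replicate differences), replicate blocks, only the compared groups, and leaving out each sample; a fit without resting replicate 2 and 3-h replicate 1 of the Runx1 c-k/o was added after seeing the data. Tables were made with Python 3.11.15 and pandas 2.3.3.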

Additional observations from a re-analysis of the deposited data

How the results depend on the processing

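None of these genes passed the threshold at rest, at 3 h or in the interaction under any alternative that was run. On activation 8 passed in each genotype, 7 with DESeq2, which gave no p for Slc1a4, 6 of the 7 left by a minimum of 10 counts in every sample, 9 with 1 RUVs factor, 9 in the Runx1 c-k/o with no filter, and 8 under the others. The RUVs factor differed between times, at 0.63 to 0.69 in resting and -0.50 to -0.42 in 3-h Cre-only samples. In the Runx1 c-k/o it was 0.64, 0.10 and 0.69 at rest and -1.39, -0.25 and -0.38 at 3 h. It thus overlaps with activation, and activation results under it cannot be set apart from that overlap. The number of all genes called between genotypes moved. At rest it was 202, with DESeq2 378, with 1 RUVs factor 524, with 1 sample left out 81 to 140 and without both resting replicate 2 and 3-h replicate 1 of the Runx1 c-k/o 598. At 3 h it was 375, and in the same order 709, 1036, 180 to 617 and 914, and with only the 2 groups compared 158. For the interaction it was 11, and 83, 142, 4 to 31 and 187, and with a replicate block within genotype 4. The replicate blocks changed no call of these genes. Upper-quartile scaling moved the median of all genes on activation by -0.26 (Cre-only) and -0.21 (Runx1 c-k/o), library totals alone by -0.12 in each, and upper-quartile scaling lowered the share of higher among called genes in Cre-only cells from 51.5% to 40.8%. At 3 h between genotypes that share went from 53.1% to 62.0%.

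Some log2 differences that did not pass the threshold changed sign, and the cause was not tested. On activation of Cre-only cells Slc38a2 had -0.00306, -0.14 and -0.0377 with library totals, upper-quartile factors and a minimum of 10 counts in every sample. In the Runx1 c-k/o it had -0.0027 and -0.0954 with library totals and upper-quartile factors. With 1 RUVs factor, which overlaps with activation, it had 0.28 in each genotype and passed (adjusted p = 0.0419 and 0.0486 by edgeR). At rest, without both libraries, Slc3a2 had -0.0991 (and -0.0179 with RUVs), Slc1a5 -0.0184, Slc7a6 -0.0522 and Bcat1 -0.64. With 1 sample left out, the resting difference ran from -0.105 to 0.204 for Slc3a2, -0.0239 to 0.197 for Slc1a5, -0.0563 to 0.146 for Slc7a6 and -0.66 to 2.38 for Bcat1, the lowest each time without Runx1 c-k/o replicate 2. At 3 h Slc7a5 had -0.0226 with RUVs, and Slc38a1 0.000185 without both libraries. The interaction with 1 sample left out ran from -0.0618 to 0.293 for Slc3a2, -0.0572 to 0.163 for Slc1a5, -0.0803 to 0.255 for Slc38a1, -0.0804 to 0.0659 for Slc38a2 and -1.92 to 1.11 for Bcat1 (1.03 without both libraries). For Slc38a2 it was 0.0344 with DESeq2's size factors, 0.0345 with DESeq2, 0.000327 with library totals, 0.0454 with upper-quartile factors, 0.045 with the stricter filter and 0.000488 with RUVs. Depth limits Slc7a11 (0 to 13 counts per sample). Without the filter its activation passed in the Runx1 c-k/o (log2 fold change 1.98, adjusted p = 0.0218 by edgeR) and had 1.61 with adjusted p = 0.108 by edgeR in Cre-only cells.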
